A study of Mus musculus with 19 samples.

Results

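The complement system was examined through 9 genes in cells sorted from the mouse hippocampus. Members were the entries of the authors' gene table that carry the symbols *C1qa*, *C1qb*, *C1qc*, *C4b*, *C3*, *Serping1*, *C3ar1*, *C5ar1* and *Cd59a*. Each symbol stood on 1 entry, so that 9 of the 60567 listed entries, of which 25896 carry a symbol, are described. Normalized mRNA levels are given throughout, the read counts of a gene divided by 1 size factor per sample.

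Complement is a set of proteins that tag debris, synapses and microbes for removal. In the classical pathway, C1q binds a target and activates the proteases C1r and C1s, which cleave C4 and then, through a C4-containing convertase, C3. Fragments of C3 and C5 attract and activate phagocytes through their receptors, and the last components assemble a pore that CD59 blocks on the body's own cells. In the healthy brain, C1q is known as a product of microglia, and C4 as a product of astrocytes among other cells.

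All mice were 9 month-old males of the C57bl6 strain and carried an AAV with the gfaABC1D promoter, a synthetic promoter derived from that of GFAP, injected in the CA1 region so that infected astrocytes expressed GFP. WT-GFP mice were non-transgenic littermates that received AAV-GFP alone. APP-GFP mice, a model of amyloid deposition, were APP/PS1dE9 transgenic mice that carry a mutated chimeric mouse/human amyloid precursor protein gene and a human presenilin 1 gene lacking an exon, and they also received AAV-GFP alone. APP-SOCS3 mice had the same transgenes and received AAV-GFP with AAV-SOCS3 at the same total viral load. SOCS3 is an endogenous inhibitor of the JAK2-STAT3 pathway. Hippocampi were dissociated and GFP+ cells, hereafter astrocytes, make up 7 samples of WT-GFP, 4 of APP-GFP and 5 of APP-SOCS3. Myelin was removed before sorting. GFP- cells were sorted from 3 WT-GFP samples, and the study lists astrocytes that were not infected, microglia, neurons and oligodendrocyte precursors among them. Endothelial marker genes were high there too, with a summed level of 177390 to 276214, against 5422 to 47227 in WT-GFP astrocytes. No GFP- cells of APP mice were analysed here. The study counts the astrocyte samples of each group as mice. Its methods also state that the left and right hippocampus of a mouse were sorted apart. Sample labels do not tell whether any samples share a mouse, and the main tests took all samples as independent. Whether the GFP- samples came from mice that also gave WT-GFP astrocytes is not stated.

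Gene reads numbered 19331876 to 32621917 in each library. The transferred gene, *Socs3*, had levels of 13296 to 37750.1 in APP-SOCS3 astrocytes, above the 438 to 1639 of all other astrocyte samples. GFP- cells, from mice that did not receive AAV-SOCS3, had 10320 to 17689, which overlaps with APP-SOCS3 astrocytes. The 15 astrocyte marker genes were each called higher in WT-GFP astrocytes than in GFP- cells, and none was called between astrocyte groups. The 20 microglial marker genes were each lower in WT-GFP astrocytes than in GFP- cells, but they were not absent. Their summed level was 13128 to 45876 in WT-GFP and 149292 to 255641 in GFP- cells. Of the 20 genes, *Ptprc* alone was at 0 in any astrocyte sample. APP-GFP samples 2 and 3 stood apart, with summed microglial levels of 77882 and 94612, above every other astrocyte sample. APP-GFP samples 1 and 4 had 18078 and 27314, and the 5 APP-SOCS3 samples 9609 to 17290.2. These values are given again beside the results they move with.

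The C1q genes lie side by side on the minus strand of chromosome 4 (mm10), with *C1qb* at chr4:136880133-136886196, *C1qc* at chr4:136889802-136892915 and *C1qa* at chr4:136895916-136898844. They encode the A, B and C chains that assemble into C1q. *C4b* (chr17:34728380-34743897, minus strand) encodes component C4, which is cleaved by the C1 proteases. *C3* (chr17:57203967-57228136, minus strand) encodes component C3, which is cleaved by the convertases. *Serping1* (chr2:84765361-84775429, minus strand) encodes the inhibitor of C1r and C1s. *C3ar1* (chr6:122847140-122856160, minus strand) and *C5ar1* (chr7:16246743-16259540, minus strand) encode the receptors of the C3a and C5a fragments. *Cd59a* (chr2:104095801-104115410, plus strand) encodes a membrane inhibitor of the terminal pore.

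The sequences before the starts of *C1qb* and *C1qc* are shown because both genes are neighbours and had levels that moved together in the samples below. They are the 250 bases upstream of the start in RefSeq (GRCm38.p6), at chr4:136886201-136886450 and chr4:136892915-136893164, read on the minus strand. Capitals mark a match to the binding motif of PU.1, a transcription factor of myeloid cells.
C1qb: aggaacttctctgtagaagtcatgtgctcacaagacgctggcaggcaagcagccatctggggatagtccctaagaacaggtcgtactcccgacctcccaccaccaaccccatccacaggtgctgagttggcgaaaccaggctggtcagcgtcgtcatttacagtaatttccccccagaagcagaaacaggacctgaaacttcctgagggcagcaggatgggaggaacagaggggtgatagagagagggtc
C1qc: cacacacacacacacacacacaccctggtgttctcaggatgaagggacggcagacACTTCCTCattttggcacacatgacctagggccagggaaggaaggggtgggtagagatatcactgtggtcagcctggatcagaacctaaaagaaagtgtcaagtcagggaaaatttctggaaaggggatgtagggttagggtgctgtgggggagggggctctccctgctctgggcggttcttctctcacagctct
Windows of 300 bases around gene starts were given for 6 of the 9 members and were searched on both strands for GAGGAAGT (PU.1), TTCNNNGAA (STAT factors) and the interferon response element. These motifs are in 3.202%, 8.30% and 3.44% of all 32851 promoter windows. The motif of PU.1 was found in *C1qc* and the interferon element in *Cd59a*, and no window of the 6 held the STAT letters. Such matches describe letters in these windows, and they are no evidence of binding or of its absence.

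*C1qb* was the member with the highest mean level per kb of exon in all 4 groups, and *C3* had the lowest. In WT-GFP astrocytes *C1qb* had 4658 ± 3011 per kb (SD, n = 7), followed by *C4b* with 2382 ± 679, *C1qc* with 1793 ± 1089.6 and *C1qa* with 1589 ± 890.4 per kb, and these neighbours in the order differed by less than the spread between samples. The other 5 members had less than *C1qa*, from *Cd59a* with 339 ± 287 to *C3* with 9.66 ± 11.7 per kb (SD, n = 7). *C4b* changed its place most between cell populations. It came second in WT-GFP and APP-SOCS3 astrocytes, after all C1q chains in APP-GFP astrocytes and second to last in GFP- cells, where it had 305 ± 88.5 per kb against 17738 ± 3063 for *C1qb* (SD, n = 3).

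Astrocytes and GFP- cells of WT-GFP mice were compared to find which population holds each mRNA. *C4b* was the member with more mRNA in astrocytes, while C1q, *Serping1* and *C3ar1* were higher in GFP- cells. A gene was called when its fold change was at least 1.5 at an unadjusted *p* of at most 0.05 in limma, the thresholds of the study. By this rule 1 of 9 members was higher and 5 were lower in astrocytes, and all 6 had a Benjamini-Hochberg adjusted *p* under 0.05. The background was high, since 42.8% of the 26709 genes tested were called, 33.5% lower and 9.25% higher in astrocytes, and 31.9% had an adjusted *p* under 0.05. Over all genes the median log2 fold change was -1.31. The median of the 9 members was -2.87.

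*C4b*, the component of the classical pathway that follows C1, had levels of 6754 to 18212 in WT-GFP astrocytes, with a median of 13975. The 3 samples of GFP- cells had 2169, 1182 and 1852. Every astrocyte sample was above every GFP- sample, by 7.82-fold between means (log2 fold change 2.95, SE 0.298, limma adjusted *p* = 2.92e-05, n = 7 and 3). The exact permutation *p*, 2-sided, was 0.0167, the smallest that these group sizes allow. Reads of *C4b* can also match *C4a*, a near-identical copy, and how the authors counted such reads is not stated. *C4a* itself had a level of 28.8 ± 16.9 (SD, n = 7) in astrocytes of WT-GFP, 51.7 ± 13.2 (SD, n = 4) in those of APP-GFP and 21.8 ± 14.6 (SD, n = 5) in those of APP-SOCS3.

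The C1q chains had the reverse pattern. *C1qa* had 532 to 3249 in WT-GFP astrocytes, with a median of 1740.5, and 7321, 8574 and 10553 in GFP- cells. *C1qb* had 1469.8 to 10724 in astrocytes, with a median of 5123, and 15520.1, 20556 and 21819 in GFP- cells. *C1qc* had 931 to 7215 in astrocytes, with a median of 3841, and 9703, 13309.7 and 14223 in GFP- cells. For each chain the lowest GFP- sample was above the highest astrocyte sample. Log2 fold changes were -2.63, -2.23 and -2.10 for *C1qa*, *C1qb* and *C1qc* (limma, adjusted *p* = 0.00247, 0.0143 and 0.0144). The median of the 20 microglial genes was -2.79.

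*Serping1* had a mean of 506 ± 207 in astrocytes (SD, n = 7) and levels of 6109, 2927 and 2601 in GFP- cells (log2 fold change -2.98, SE 0.494, limma adjusted *p* = 0.000994). *C3ar1* had 542 ± 359 (SD, n = 7) against 3449.9, 3770.4 and 5883 (log2 fold change -3.31, SE 0.624, limma adjusted *p* = 0.00232). Neither gene overlapped between populations. *C5ar1* and *Cd59a* also did not overlap, with 0 to 927 and 1.52 to 1322 in astrocytes against 2117 to 2851 and 2516 to 3503 in GFP- cells, but they were not called. Their log2 fold changes were -3.69 (95% interval -7.54 to 0.16) and -3.52 (-7.08 to 0.04). In both genes WT-GFP sample 1 was near 0, and without this sample the log2 fold changes were -2.43 and -2.41 (limma adjusted *p* = 0.00206 and 0.0140). Both genes were also called by DESeq2, with a pseudocount of 10 and with equal total levels, *C5ar1* by edgeR and *Cd59a* with all 19 samples in one fit, so that 6 to 8 members were called over the alternatives.

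In total 8 of 9 members did not overlap between populations, beside 34.8% of all genes tested. The exception was *C3*, the component at which all complement pathways meet. It was listed at 0 in 3 of 7 WT-GFP samples and at 32.0 to 160.2 in the other 4, while GFP- cells had 65.3, 90.0 and 108. The entry of *C3* also carries a microRNA gene that lies inside it. All levels of *C3* rest on few reads, and *C3* was not called in the 4 comparisons. With the replicate number as a block it was called lower in WT-GFP astrocytes than in GFP- cells (log2 fold change -6.44, limma adjusted *p* = 0.0187). Whether these numbers pair the samples is not stated.

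**Figure D1:**
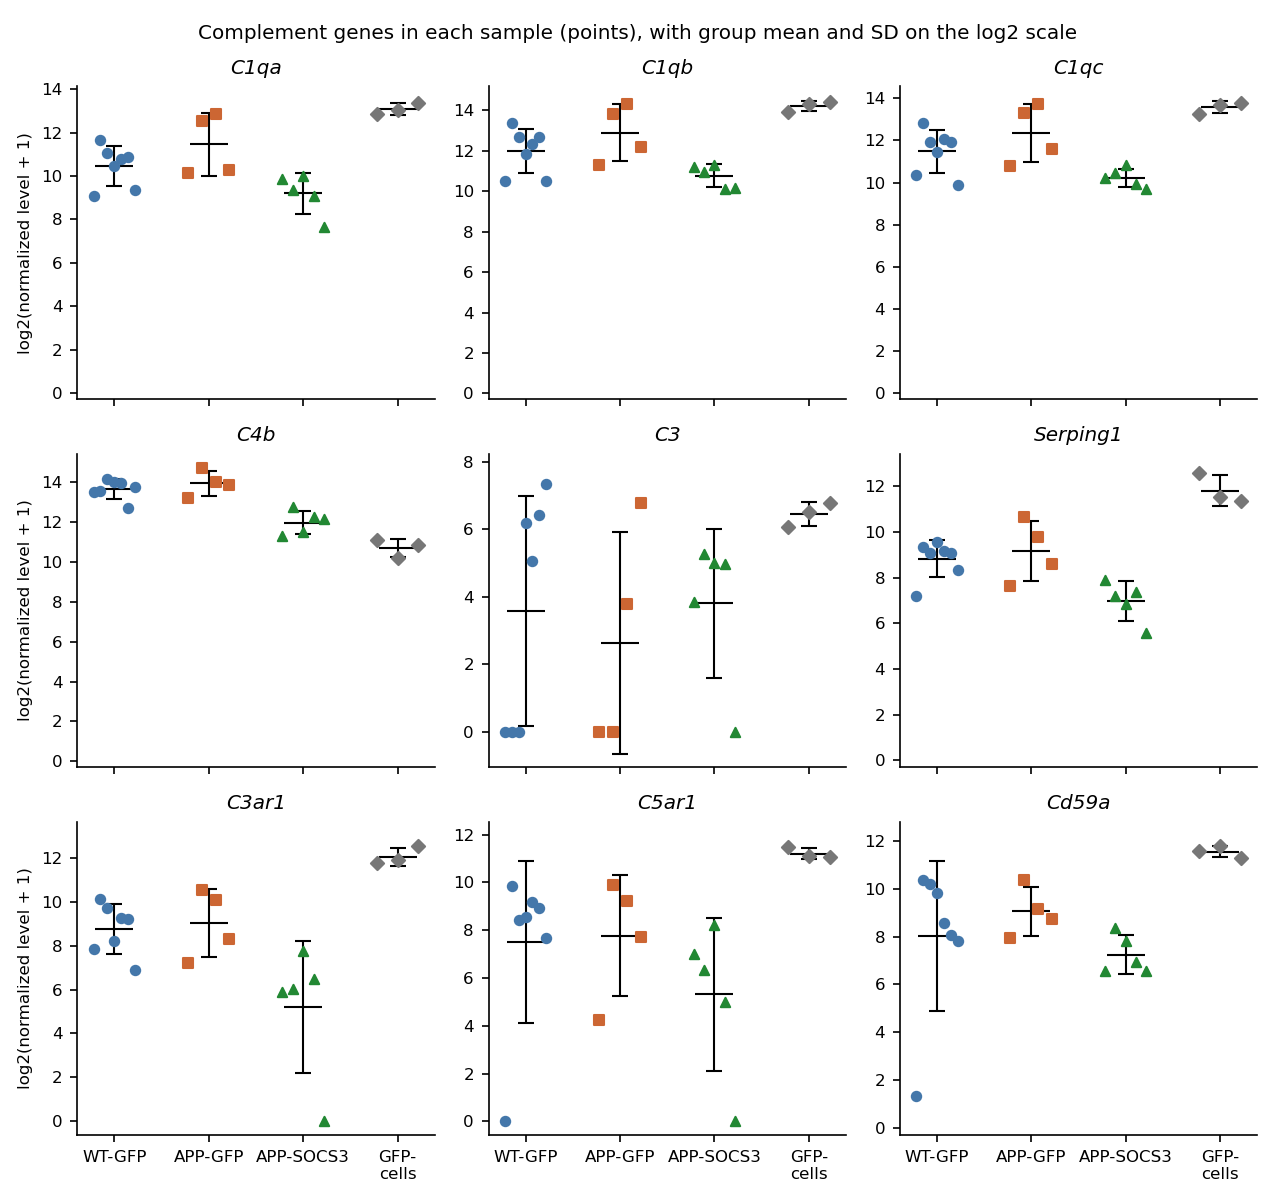
Normalized levels of the 9 complement genes as log2(level + 1) in each sample (points), for 7 samples of WT-GFP, 4 of APP-GFP and 5 of APP-SOCS3 astrocytes and 3 of GFP- cells, with the mean and SD of the log2 values. *C4b* is the member whose astrocyte samples all lie above the GFP- cells, and the points at 0 are samples in which *C3*, *C3ar1* or *C5ar1* had no reads.

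APP-GFP and WT-GFP astrocytes were compared to ask whether amyloid pathology changes complement mRNA in astrocytes. No member was called, beside 2.23% of the 22969 genes tested, and none had an unadjusted *p* of at most 0.05 in limma. All 9 overlapped between groups, beside 0.313% of all genes that did not. The mean levels of the C1q chains were higher in APP-GFP astrocytes, with ratios of means of 2.39, 2.05 and 2.07 for *C1qa*, *C1qb* and *C1qc*, but the samples of both groups overlapped. The edgeR and DESeq2 tests on whole reads each called 1 member, *C1qa*, at an unadjusted *p* of 0.0395 and 0.0255 (not exact tests), and neither gave an adjusted *p* under 0.05.

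The APP-GFP samples fell apart from each other. *C1qa* had 1139.6, 5966, 7467 and 1226 in APP-GFP samples 1 to 4, against 532 to 3249 in WT-GFP. *C1qb* had 2470.3, 14425, 20063 and 4587, against 1469.8 to 10724. *C1qc* had 1781, 10167, 13601 and 3124, against 931 to 7215. In each chain samples 2 and 3 were above all WT-GFP samples, and samples 1 and 4 were within their range. Log2 fold changes were 1.00 (SE 0.608) for *C1qa*, 0.90 (SE 0.645) for *C1qb* and 0.88 (SE 0.619) for *C1qc*, with exact permutation *p* of 0.194, 0.267 and 0.255. The 95% interval of *C1qa*, -0.32 to 2.31, holds both no difference and a change of several fold.

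APP-GFP samples 2 and 3 are those with the highest summed level of microglial genes. Without both, which was tried after the data were seen, the log2 fold changes of *C1qa*, *C1qb* and *C1qc* turned to -0.25, -0.27 and -0.28. Without APP-GFP sample 1, in contrast, 3 members were called, with log2 fold changes of 1.43, 1.43 and 1.40 for the C1q chains. The share of all genes called without that sample is not given here. Of the 20 microglial genes, 2 were called higher in APP-GFP, and their median log2 fold change was 0.55, beside 0.092 for all genes. In these bulk samples fewer cells of a type and less mRNA per cell cannot be told apart, and the part of microglial mRNA in the C1q levels was not tested.

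*C4b* differed less than C1q between these groups. It had 9351, 26775, 16429.7 and 14920.0 in the 4 APP-GFP samples, of which 3 were within the WT-GFP range of 6754 to 18212. The log2 fold change was 0.28, with a 95% interval of -0.36 to 0.91 (limma *p* = 0.362, exact permutation *p* = 0.43). *Serping1*, *C3ar1*, *C5ar1* and *Cd59a* had log2 fold changes of 0.35, 0.28, 0.26 and 1.03, with limma *p* from 0.472 to 0.879. In each of these genes APP-GFP sample 2 had the highest level of the group and sample 1 the lowest. *C3* was listed at 0 in 2 of 4 APP-GFP samples and at 12.9 and 109 in the other two.

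APP-SOCS3 and APP-GFP astrocytes were compared to ask which mRNA levels differ with SOCS3 in amyloid mice. *C1qa*, *C1qb*, *C1qc*, *C4b*, *Serping1*, *C3ar1* and *Cd59a* fell with SOCS3. These are 7 of 9 members, beside 5.7% of the 22844 genes tested that were called in either direction and 3.37% that were called lower. The median log2 fold change was -2.15 for the members and 0.076 for all genes. None of the 7 had an adjusted *p* under 0.05 in limma, where 1 gene of all tested, *Socs3*, did (0.00438%). The edgeR and DESeq2 tests on whole reads also called 7 members lower. By adjusted *p* edgeR called 0 of 9 members and DESeq2 5, which were the C1q chains, *C4b* and *Serping1*. The share of all genes by adjusted *p* in DESeq2 is not given here, so the 5 cannot be set against it.

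*C4b* had the smallest *p* of the members. The 5 APP-SOCS3 samples had 2488, 6886, 2860.4, 4869.5 and 4531, all below the lowest APP-GFP sample, 9351. The level was 3.90-fold lower between means (log2 fold change -1.96, SE 0.338, 95% interval -2.70 to -1.22, limma adjusted *p* = 0.194, range 9.11e-06 to 0.863 over the alternatives). The exact permutation *p*, 2-sided, was 0.0159, the smallest that 5 against 4 samples allow. The lowest APP-SOCS3 sample remained above the highest GFP- sample, 2169, a difference that was not tested. *C4b* kept its call without APP-GFP samples 2 and 3 (log2 fold change -1.55).

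All C1q chains were lower with SOCS3. *C1qa* had 925, 651, 1038, 539 and 203 in APP-SOCS3, all below the lowest APP-GFP sample, 1139.6. *C1qb* had 2354, 1989, 2551, 1113 and 1152, and *C1qc* had 1169, 1399, 1822, 964 and 831. In *C1qb* and *C1qc* the highest APP-SOCS3 sample, number 3, was just above the lowest APP-GFP sample, number 1. Log2 fold changes were -2.26 (SE 0.644), -2.13 (SE 0.554) and -2.15 (SE 0.530), with limma *p* of 0.00485, 0.00269 and 0.0019 and exact permutation *p* of 0.0159, 0.0317 and 0.0317. Between groups 2 members did not overlap, *C1qa* and *C4b*, beside 2.01% of all genes.

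*Serping1* had 236, 145, 115, 167 and 46.6 in APP-SOCS3 and 198, 1604, 886 and 392 in APP-GFP (log2 fold change -2.19, SE 0.626, exact permutation *p* = 0.0317). *C3ar1* had 57.4, 63.2, 212, 88.2 and 0, against 145, 1491, 1086 and 312 (log2 fold change -3.81, SE 1.37, exact permutation *p* = 0.0317). *Cd59a* had 93.8, 326, 227, 121 and 93.2, against 247, 1342, 564 and 431 (log2 fold change -1.81, SE 0.533, exact permutation *p* = 0.0317). In each of these genes 4 of 5 APP-SOCS3 samples were below all APP-GFP samples. *C5ar1* had 126, 80.0, 300.04, 31.4 and 0, against 18.1, 962, 605 and 207, and it was not called (log2 fold change -2.46, 95% interval -6.00 to 1.08). *C3* had 13.2, 37.2, 31.0, 30.4 and 0 with SOCS3, and its groups overlapped.

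Markers of several other cell types were lower with SOCS3 in the same samples. Of the 20 microglial genes 18 were called lower, with a median log2 fold change of -1.88. All 15 endothelial genes and 6 of 8 genes of border macrophages were called lower, and none of 15 astrocyte genes was called. Of the genes tested, 4 of 10 mural, 3 of 8 fibroblast, 4 of 9 neuronal and 2 of 9 oligodendrocyte lineage genes were called lower. The 1 blood leukocyte gene tested was not called, and 3.37% of all genes were called lower. Summed endothelial levels were 1839 to 8359 in APP-SOCS3 and 7926 to 42918 in APP-GFP. In APP-SOCS3 sample 5, 5 of the endothelial genes were at 0, and in sample 3 *Cdh5* and *Abcb1a* were. Without APP-GFP samples 2 and 3, tried after the data were seen, 3 members were called in place of 7. These were *C1qb*, *C1qc* and *C4b*, with log2 fold changes of -0.96, -0.99 and -1.55. The share of all genes called in that fit is not given here. The part of these cell types in the lower levels was not tested.

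**Figure D2:**
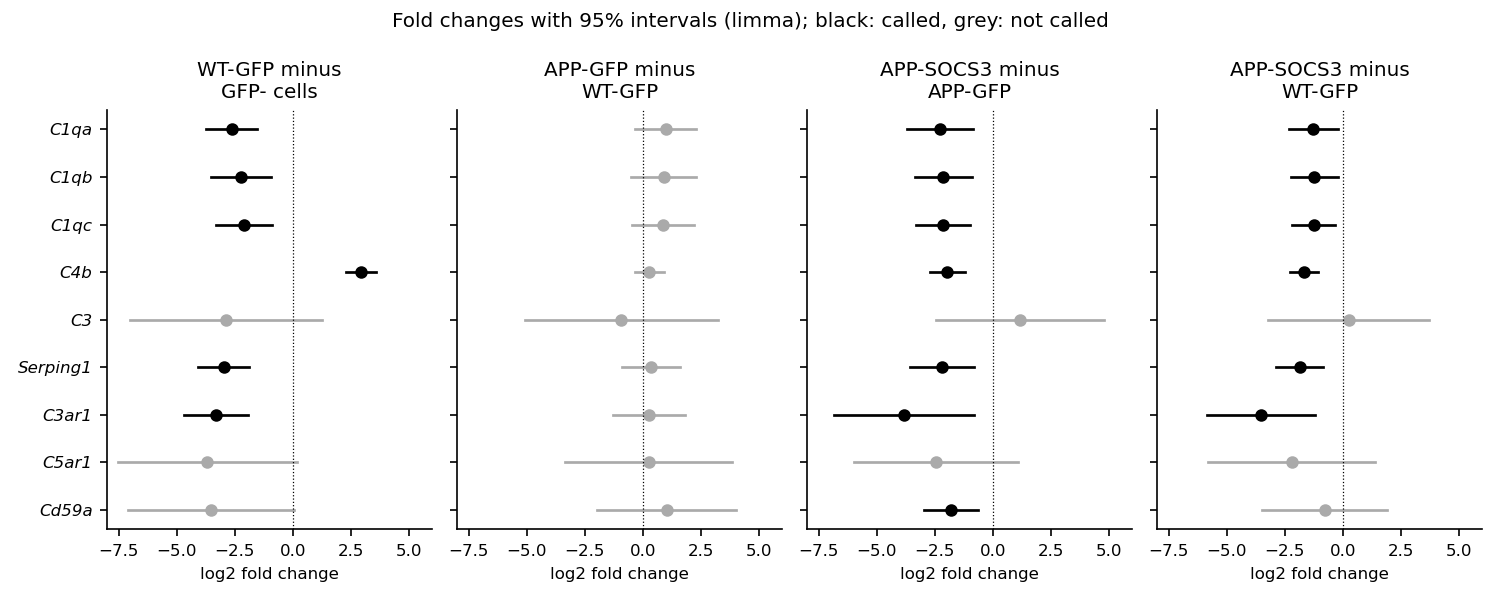
Log2 fold changes of the 9 complement genes in the 4 comparisons, with 95% intervals from limma on log2(level + 1). Black marks are called genes and grey marks are not. *C4b* lies at 2.95 between WT-GFP astrocytes and GFP- cells, no interval leaves 0 between APP-GFP and WT-GFP, and 7 and 6 genes are lower with SOCS3 than in APP-GFP and WT-GFP astrocytes.

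APP-SOCS3 and WT-GFP astrocytes were compared to place the levels with SOCS3 beside those of mice without amyloid. This comparison shares its samples with those above. The groups differ in both genotype and vector, and no WT mice with SOCS3 are among the samples, so these cannot be told apart. *C1qa*, *C1qb*, *C1qc*, *C4b*, *Serping1* and *C3ar1* were lower in APP-SOCS3 than in WT-GFP, 6 of 9 members. Of the 22958 genes tested 5.21% were called in either direction and 2.02% lower. The median log2 fold change was -1.26 for the members and 0.19 for all genes. No member had an adjusted *p* under 0.05 in limma, beside 0.0305% of all genes, or in edgeR, while DESeq2 gave 3 (*C1qc*, *C4b* and *Serping1*). The share of all genes in DESeq2 is not given here either. Of the members 0 of 9 did not overlap between groups, beside 0.566% of all genes.

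*C4b* had the smallest SE (log2 fold change -1.68, SE 0.277, limma adjusted *p* = 0.0545, range 2.91e-06 to 0.715 over the alternatives, exact permutation *p* = 0.00505). Its ranges met at 1 sample of each group, since the highest APP-SOCS3 sample had 6886 and the lowest WT-GFP sample 6754. The C1q chains had log2 fold changes of -1.26, -1.24 and -1.26 (exact permutation *p* = 0.048, 0.0505 and 0.0328), and 2 WT-GFP samples, numbers 1 and 7, were within the APP-SOCS3 range in each chain. *C1qa* lost its call without APP-SOCS3 sample 5, and *C1qb* without sample 4 or 5. *Serping1* (log2 fold change -1.85, SE 0.472, exact permutation *p* = 0.0101) and *C3ar1* (-3.53, SE 1.08, exact *p* = 0.00505) were called too. *Cd59a* and *C5ar1* had log2 fold changes of -0.78 and -2.20 and were not called, but without WT-GFP sample 1 they were -1.90 and -3.46 and were called (limma adjusted *p* = 0.358 and 0.541). Of the microglial genes 13 of 20 were called lower here, and of the endothelial genes 12 of 15.

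The C1q genes and the microglial genes had similar profiles over the 16 astrocyte samples. The Pearson r of log2 levels with the summed microglial level was 0.957, 0.963 and 0.968 for *C1qa*, *C1qb* and *C1qc*, 0.903 for *Serping1*, 0.692 for *C4b* and -0.058 for *C3* (n = 16 samples, which include groups with different means). Between the chains r was 0.963 for *C1qa* and *C1qb*, 0.955 for *C1qa* and *C1qc* and 0.986 for *C1qb* and *C1qc*. Similar genes were searched among the 10662 whose mean level reached 100, and members were not ranked. Of the genes ranked, *Ctss*, which encodes the lysosomal protease cathepsin S, was most like each C1q chain (r = 0.959, 0.971 and 0.983). *Trem2* and *Aif1* followed for *C1qa*, *Aif1* and *Fcgr3* for *C1qb*, and *Aif1* and *Fcer1g* for *C1qc*. The genes most like *C4b* were *P2ry13*, a purinergic receptor of microglia (r = 0.904), the entry shared by *Uba7* and *Cdhr4* (0.893) and *Ctgf* (0.890). Those most like *Serping1* were *Apod*, *Vtn* and *Ucp2* (r = 0.940, 0.940 and 0.936).

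For *C3ar1* the most similar genes were *Gper1*, *Stra6* and *AW112010* (r from 0.936 to 0.953), for *C5ar1* they were *Mylk*, *Hbb-bt* and *Tie1* (0.923 to 0.940), and for *Cd59a* they were *Arhgdib*, *Mafk* and *Foxq1* (0.939 to 0.955). None of these 9 genes is on the microglial list, and *Tie1* is on the endothelial one. Pearson r with the summed microglial level was 0.789 for *C3ar1*, 0.755 for *C5ar1* and 0.656 for *Cd59a*. By ranks (Spearman) it was 0.903, 0.907 and 0.891, beside 0.882 for *Serping1* and 0.75 for *C4b*. For *C3* the highest r was 0.814, with *Ulk4*. These correlations describe 16 libraries that differ in the number of genes detected, from 15575 to 26757, and that include samples at or near 0 for *C3*, *C3ar1*, *C5ar1* and *Cd59a*.

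**Figure D3:**
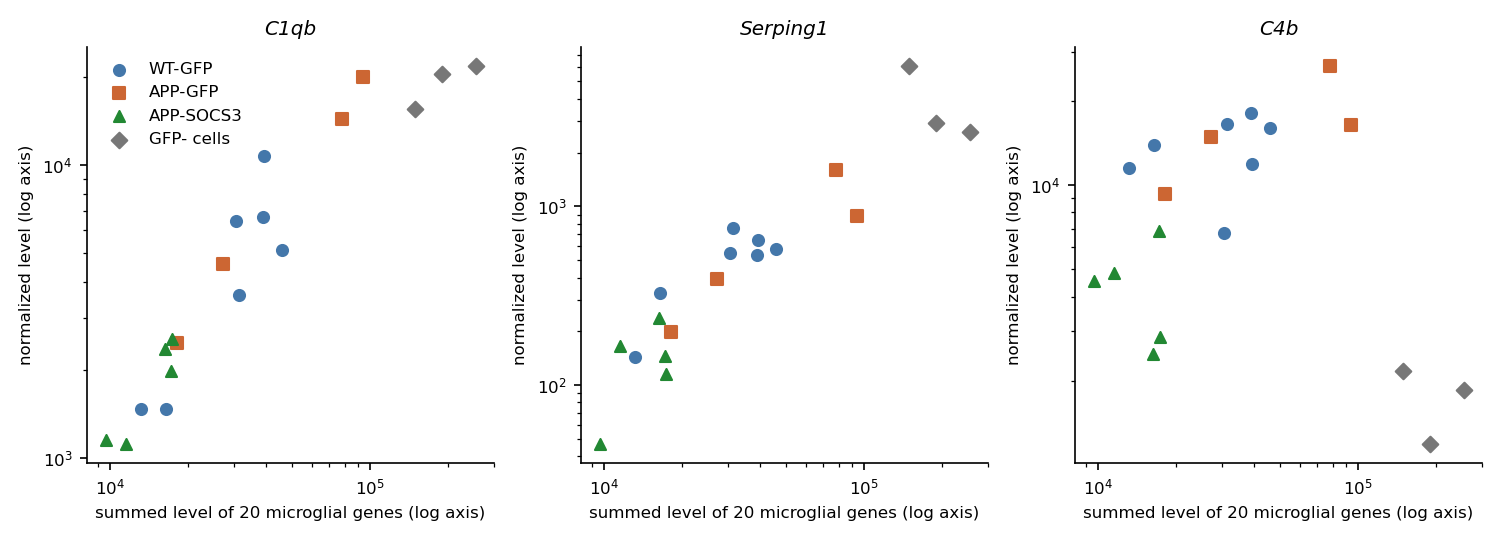
Normalized level of *C1qb*, *Serping1* and *C4b* (log axis) against the summed level of 20 microglial genes (log axis) in each of the 19 samples. *C1qb* rises along the astrocyte samples toward the GFP- cells, while *C4b* is lower in GFP- cells, which have 149292 to 255641 of microglial mRNA, than in every astrocyte sample.

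The levels were also set against the summed microglial level of the same sample, as a percentage. For *C4b*, samples of WT-GFP astrocytes had 22.2% to 87.9%, those of APP-GFP 17.4% to 54.6% and those of APP-SOCS3 15.3% to 47.2%, but 0.623% to 1.45% were found in GFP- cells. All 16 astrocyte samples thus had more *C4b* for their microglial mRNA than the GFP- cells. This follows from the levels above, as each astrocyte sample had more *C4b* and a lower microglial sum than every GFP- sample. For *C1qa*, samples of WT-GFP astrocytes had 3.79% to 8.27%, those of APP-GFP 4.49% to 7.89%, those of APP-SOCS3 2.11% to 6.00% and GFP- cells 4.13% to 4.90%, so that all groups overlapped with the GFP- cells.

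*C1qb* had medians of 11.5% in WT-GFP, 17.7% in APP-GFP, 12.0% in APP-SOCS3 and 10.4% in GFP- cells. All 4 APP-GFP samples, at 13.7% to 21.2%, were above the GFP- range of 8.54% to 10.8%, and they overlapped with both other astrocyte groups. *C1qc* spanned 9.85% to 14.4% among APP-GFP samples and 7.17% to 10.5% among those of APP-SOCS3, against 5.56% to 7.01% in GFP- cells. Samples of WT-GFP had 5.68% to 18.4% and overlapped with all of these groups. The groups of percentages were not tested. Ratios between the chains were 0.176 to 0.484 for *C1qa* to *C1qb* and 0.497 to 0.882 for *C1qc* to *C1qb* over the 19 samples, and the lowest of both was in APP-SOCS3.

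**Figure D4:**
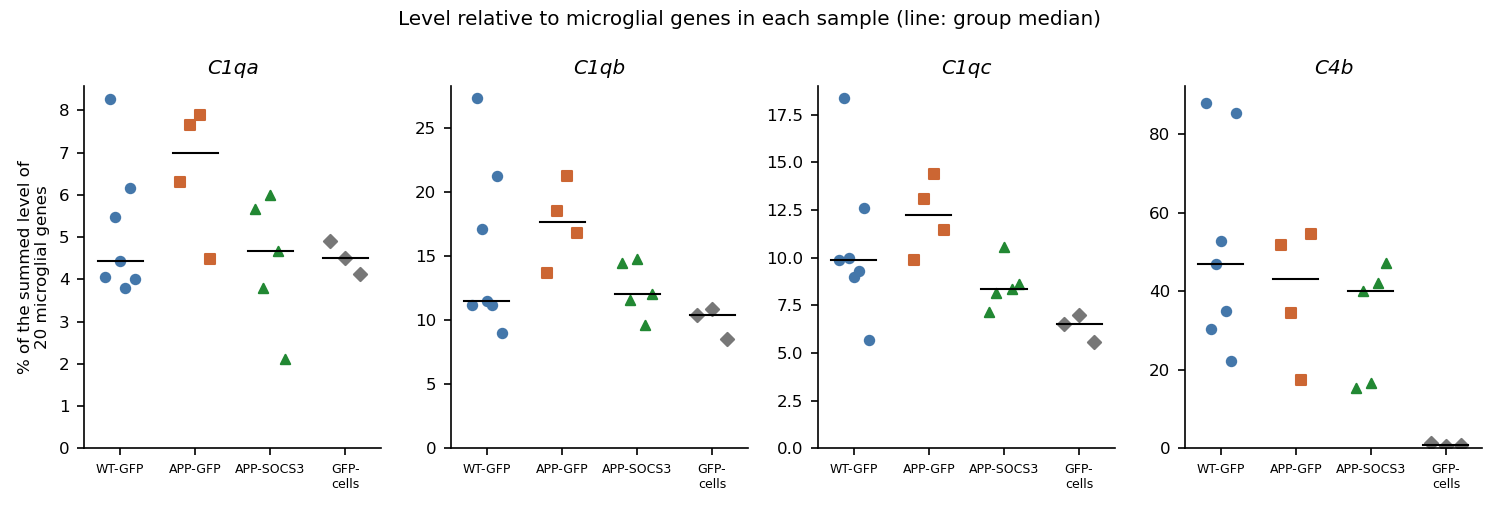
Level of *C1qa*, *C1qb*, *C1qc* and *C4b* as a percentage of the summed level of 20 microglial genes in each sample (points), with the group median (line), in astrocytes of the 3 groups and in GFP- cells. The 3 samples of GFP- cells have 0.623% to 1.45% for *C4b*, and the astrocyte samples 15.3% or more.

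A list of 47 other complement genes was examined for the rest of the pathway. Of these, 33 passed the minimum level between WT-GFP astrocytes and GFP- cells, where 2 were called higher and 18 lower in astrocytes, beside 9.25% and 33.5% of all genes. *Clu*, which encodes clusterin, a secreted inhibitor of the terminal pore, had 404691 ± 63004 in astrocytes (SD, n = 7) and 38185 ± 12983 in GFP- cells (SD, n = 3), with a log2 fold change of 3.45 (limma adjusted *p* = 6.38e-06). *C1qbp*, a mitochondrial protein that was named for its binding to C1q, was the other one (log2 fold change 0.82, limma adjusted *p* = 0.0198), named after its value was seen.

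*Vtn*, which encodes vitronectin, another inhibitor of the pore, was lower in astrocytes, with 3369 ± 1623 (SD, n = 7) against 51644 ± 9438 (SD, n = 3). The protease gene *C1ra* had 11.8 ± 17.0 against 482 ± 281. *Itgax*, a subunit of complement receptor 4, was at 0 in all WT-GFP astrocytes and was at least 15.5-fold lower than in GFP- cells, taking 3 reads per library as the floor. *Fcnb*, a ficolin of the lectin pathway, was also at 0 there and was at least 7.25-fold lower. *Colec11*, *Csmd3* and *Cd93* were lower as well (log2 fold changes -5.36, -5.33 and -7.22).

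Between astrocyte groups 29 of the 47 genes passed the minimum level in each comparison. Only *Susd4*, which encodes a membrane inhibitor of complement, was called higher in APP-GFP than in WT-GFP, with 88.5 ± 78.1 (SD, n = 4) against 20.6 ± 26.1 (SD, n = 7; limma adjusted *p* = 0.999, exact permutation *p* = 0.0788), beside 2.23% of all genes called in either direction. With SOCS3, 6 genes were lower than in APP-GFP and 1 was higher, beside 3.37% of all genes called lower and 5.7% called in either direction. *Itgam* and *Itgb2*, the subunits of complement receptor 3, had 48.9 ± 52.3 and 80.9 ± 72.5 in APP-SOCS3 (SD, n = 5) against 452 ± 441 and 618 ± 352 in APP-GFP (SD, n = 4; exact permutation *p* = 0.0476 and 0.0159). *Vtn* (log2 fold change -3.08), *Susd4* (-3.55) and *Colec12*, a scavenger receptor of the collectin family (-4.39), were lower as well.

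*Hc*, the gene of component C5, was the one called higher, with 72.3 ± 30.7 in APP-SOCS3 (SD, n = 5) and 26.3 ± 33.1 in APP-GFP astrocytes (SD, n = 4; exact permutation *p* = 0.127). No gene of the list had an adjusted *p* under 0.05 in these comparisons. *Vtn* was also lower in APP-SOCS3 than in WT-GFP (log2 fold change -2.90, exact permutation *p* = 0.0101) and *Colec11* was higher (2.41, exact *p* = 0.0303). The other 27 tested genes were not called there, beside 5.21% of all genes called. The median log2 fold change of the list was -3.52, 0.24, -0.22 and 0.0064 in the order of the comparisons above.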

How the data were processed

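RNAseq was performed by the authors on sorted hippocampal cells, and all 19 samples were used. Reads were mapped by the authors to mm10 with STAR 2.4.0, and those on constitutive regions of FAST DB genes were counted and normalized with DESeq2. Per gene and library, the deposited table holds a signal, the read count divided by 1 size factor. Strand and multi-mapping rules are not given in the sources used here. Since 100% of values were whole multiples of 1 read (tolerance 0.01), whole reads were recovered.

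From the deposited values, log2(level + 1) was tested with limma 3.58.1 in R 4.3.3 (mean-variance trend, samples of both groups, no covariates), on genes with a mean of at least 10 in either group. Exact permutation tests were made on mean log2 levels. Depth was 19331876 to 32621917 reads per sample, and intervals cover the spread between samples. Members, lists and tests were chosen with earlier results of these data known. All 9 members were named in each comparison, with at most 8 called genes of the smallest *p* from the other complement genes, of which 1 is not reported here, and *C1qbp*. Levels per kb used exons of GENCODE M21, not the counted regions. Alternatives were pseudocounts of 0.1 and 10, no minimum level or 100, equal totals, all 19 samples in one fit, edgeR 4.0.16, DESeq2 1.42.0, adjusted *p*, a replicate block and leaving out each sample. The limma fit was tested on simulated counts with the same dispersion for every gene. Members in APP-GFP spread more, with an SD of 43.1% to 173% of the mean, so this says little about their calls.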

Additional observations from a re-analysis of the deposited data

Results flagged for a closer look

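In 27 sets of 4 to 7 samples, 1 for each member and astrocyte group, the lowest or highest sample was compared with the rest. Dixon's ratio was taken on log2(level + 1), where values at or near 0 lie far off, and 4 values were flagged. The levels below are not on the log2 scale. Chance flags about 1 in 20 such sets. *C5ar1* was at 0 in WT-GFP sample 1, while the other 6 samples had 205 to 927. *Cd59a* was at 1.52 in the same sample, with 224 to 1322 in the others. *C3ar1* was at 0 in APP-SOCS3 sample 5, with 57.4 to 212 in the others, and *C3* was at 0 in that sample too, with 13.2 to 37.2 in the others.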

How the results depend on the processing

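In the comparison of WT-GFP astrocytes with GFP- cells, the 6 called members kept their calls by the thresholds in every fit run. In APP-SOCS3 against APP-GFP, *C1qb*, *C1qc* and *C4b* did, and against WT-GFP *C1qc*, *C4b*, *Serping1* and *C3ar1*. *Cd59a* lost its call against APP-GFP with all 19 samples in one fit, and *C3ar1* without APP-GFP sample 3. The number of members called between APP-GFP and WT-GFP was 0, but it was 1 with edgeR and 1 with DESeq2 (*C1qa* in both), and 0 to 3 with single samples left out. It was 3 without APP-GFP sample 1 and 1 without sample 4. Shares of all genes called with samples left out are not given here. By adjusted *p* in limma and edgeR, 0 members were called with SOCS3 against APP-GFP (7 by the thresholds) and 0 against WT-GFP (6). DESeq2 called 5 and 3, with no share of all genes to set beside them. Replicate numbers gave no sign of pairing, as correlations of same-numbered samples were -0.08 to 0.15 and not all over 0.1. Such correlations cannot exclude that samples share a mouse. With the replicate number as a block, 2 members were called between APP-GFP and WT-GFP, and the log2 fold change of *C3* was 1.10 there. Between WT-GFP astrocytes and GFP- cells it was -6.44 with the block and was called. Without both APP-GFP samples of highest microglial level, an alternative chosen after seeing the data, 3 members were called with SOCS3 against APP-GFP. Log2 fold changes of APP-GFP against WT-GFP then turned to -0.25 in *C1qa*, -0.27 in *C1qb*, -0.28 in *C1qc*, -0.14 in *C4b*, -0.70 in *Serping1*, -1.01 in *C3ar1* and -1.54 in *C5ar1*.

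Uncalled members changed sign in other settings. In APP-GFP against WT-GFP, with single samples left out, *Serping1* ranged from -0.14 to 0.86, *C3ar1* from -0.22 to 0.89, *C5ar1* from -0.99 to 1.43 and *Cd59a* from -0.086 to 1.42. *C5ar1* was -0.080 with a pseudocount of 10. *C3* was -0.41 with edgeR and -0.43 with DESeq2 in APP-SOCS3 against APP-GFP. Against WT-GFP it was -1.14 with both tools, -0.27 with a pseudocount of 10, and -0.35 to 1.20 with single samples left out. The cause was not tested.

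Over all genes, a minimum level of 100 left 6709, 123, 650 and 441 calls in the 4 comparisons, of 11419, 513, 1301 and 1197, since fewer genes are tested, and *C3* was then not tested. APP-GFP against WT-GFP had 817 calls with no minimum and 991 with all 19 samples in one fit. By adjusted *p* in limma, 1, 1 and 7 genes were called in the astrocyte comparisons. Splits of calls moved with the tool. APP-GFP against WT-GFP had 382 higher and 131 lower calls with limma, 412 and 247 with edgeR and 205 and 325 with DESeq2. APP-SOCS3 against WT-GFP had 733 and 464, 441 and 762, and 340 and 824. WT-GFP against GFP- cells had 2471 and 8948, 3323 and 5265, and 3173 and 5784. APP-SOCS3 against APP-GFP had 532 and 769 with limma and 398 and 925 with edgeR. Precision is limited by 3 to 7 samples a group and by low reads of *C3*.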
